A study of Homo sapiens with 27 samples.

Results

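In all, 45 genes of the translation machinery were followed through 5 states of IMR90 cells, a line of normal human lung fibroblasts. They were taken from a fixed list of symbols, which matched 45 of 45 gene IDs among the 60534 IDs shared by all libraries. The list holds 5 factors of start codon selection and subunit joining, 4 of non-canonical initiation and tRNA release, 13 subunits of eIF3, 7 helicases and scaffolds of the eIF4 group, EIF5A and EIF6, 7 elongation genes, 3 of termination and recycling, 2 poly(A)-binding proteins, and TPT1 and RACK1. RNA-seq gave the mRNA level, and ribosome profiling (Ribo-seq), which sequences the mRNA fragments that ribosomes shield from RNase, gave the footprints on it. Translational efficiency is the ratio of footprints to mRNA. The study set senescent, quiescent and stressed cells beside cycling ones, and its title places the question in senescence-specific translation and the integrated stress response.

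All cells were wild-type IMR90, except that the labels of the thapsigargin libraries give no genotype. Cycling cells were untreated and subconfluent, and quiescent cells were arrested by contact inhibition. Irradiated senescent cells had received 15 Gy of ionizing radiation and were harvested after 10 days. The other senescent cells were made in 10 days by 3 rounds of etoposide at 50 µM, a drug that traps topoisomerase II on broken DNA. The stressed cells were cycling cells given 25 nM thapsigargin for 3 h. Thapsigargin blocks the pump that fills the calcium store of the endoplasmic reticulum. The 27 libraries comprise 3 RNA-seq and 3 Ribo-seq libraries per state, but only 2 of RNA-seq for cycling cells and 2 of either type under thapsigargin. The labels do not say that the libraries came from separate cultures, so p-values measure only the spread between these libraries, which may be technical.

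Gene counts per library ran from 20.6 to 57.1 M (M, 1e+06) in RNA-seq and from 1.94 to 20.0 M in Ribo-seq, the 2 lowest being the thapsigargin Ribo-seq libraries. The thapsigargin libraries stood apart in 2 measures. Unmapped reads were 1.35% and 1.40% of their RNA-seq reads against 27.8% to 40.6% in the other states, and reads mapping to several places were 65.2% and 66.9% of their Ribo-seq reads against 19.8% to 31.9%. Their labels also describe a medium without the antibiotics named for the other states. The cycling Ribo-seq libraries were also counted on another gene list than the thapsigargin ones, while the RNA-seq tables of both listed 62703 IDs. Given these differences in reads, in medium and, for footprints, in gene list, treatment and preparation cannot be told apart in any comparison with thapsigargin. The 10 fibroblast markers summed to between 9118 and 15164 CPM in every RNA-seq library. Endothelial and immune markers summed to at most 2.41 and 1.12 CPM. The 5 epithelial markers summed to 131 and 144 CPM under thapsigargin, against 53.9 to 106 CPM elsewhere, and their part in the results was not tested. MKI67 mRNA, a proliferation marker, changed by -3.41 after irradiation and by -4.60 after etoposide on the log2 scale, and DDIT3, a stress gene, by 3.44 under thapsigargin, all with edgeR adjusted p below the 0.05 threshold. In quiescent cells MKI67 mRNA was 38.1, 136 and 49.2 CPM, against 133 and 154 in cycling cells. Library 2 thus lay in the cycling range, and the change of -0.94 was not called (edgeR adjusted p = 0.170). MKI67 footprints changed there by -1.13 (edgeR adjusted p = 0.00165).

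Translation begins when initiation factors load a small ribosomal subunit onto a capped mRNA, scan to a start codon and join the large subunit. Elongation factors then deliver aminoacyl-tRNAs and move the ribosome, and release factors end the chain and free the subunits. Many of these mRNAs begin with a C followed by an unbroken run of pyrimidines, the 5′ terminal oligopyrimidine (TOP) motif, through which mTOR and the protein LARP1 set their translation and stability with growth conditions.

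The annotated starts show which mRNAs carry that run, and 11 of them are printed because the results below turn on these genes. Each line holds the 10 bases before and the 20 bases from a RefSeq transcription start (GRCh38.p14), 5′ to 3′ on the gene's strand. Capitals mark a TOP start, counted where the first transcribed base is C and at least the next 4 are C or T. The window with such a start is shown where a gene has several, as in EEF1B2.
EEF1A1 (chr6:73521013-73521042, minus strand): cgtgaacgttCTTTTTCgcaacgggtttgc
EEF1B2 (chr2:206159885-206159914, plus strand): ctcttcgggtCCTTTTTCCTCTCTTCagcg
EEF2 (chr19:3985444-3985473, minus strand): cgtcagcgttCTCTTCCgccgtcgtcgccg
EIF3F (chr11:7987327-7987356, plus strand): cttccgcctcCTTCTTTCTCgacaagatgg
EIF4B (chr12:53006446-53006475, plus strand): tcatccgggtCTTTTgcgttctctttccct
RACK1 (chr5:181243887-181243916, minus strand): gcttttctctCTCTCTTTCactgcaaggcg
TPT1 (chr13:45341164-45341193, minus strand): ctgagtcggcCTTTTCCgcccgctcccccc
EIF2A (chr3:150546777-150546806, plus strand): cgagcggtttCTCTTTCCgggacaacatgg
EIF4A2 (chr3:186783567-186783596, plus strand): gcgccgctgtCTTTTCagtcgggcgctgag
EEF2K (chr16:22206268-22206297, plus strand): gcccgcttctgctcaacctagaccagcccc
EIF1 (chr17:41688875-41688904, plus strand): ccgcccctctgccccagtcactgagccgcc
The first 7 belong to the 12 members listed in textbooks as TOP mRNAs (EEF1A1, EEF1B2, EEF1D, EEF1G, EEF2, EIF3E, EIF3F, EIF3H, EIF4B, PABPC1, TPT1 and RACK1). EIF2A and EIF4A2 are not on that list but have a run at the annotated start. EEF2K and EIF1 have none. Of the 37 members with a window, 13 (35.1%) had a TOP start, against 1429 of 35116 windows of all genes (4.07%) and 796 of 10875 tested genes (7.32%). Among the 8 textbook TOP members with a window, 7 had one, EEF1G being the exception. The other 6, of 29 members, were EIF2A, EIF2D, EIF3D, EIF3K, EIF3M and EIF4A2. EIF3A, EIF3G, EIF3L and PABPC4 had no window in the table. The textbook TOP members EEF1D, EIF3E, EIF3H and PABPC1 were left out by genomic position, as given with the processing. The values over all genes had no such exclusion, so the shares of members and of all genes come from differently restricted sets. The share among textbook members, and the later division of members by start, are partial for the same reason. An annotated start need not be the one used in these cells.

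Values below are counts per 1e+06 gene counts (CPM) after TMM scaling, one per library in replicate order. Differences are log2 fold changes ± SE with edgeR's quasi-likelihood adjusted p, corrected over all protein-coding genes tested. Genes past an adjusted p of 0.05 are said to have risen or fallen. Each call was recomputed under other scalings, filters, tools and designs and without each library in turn, 12 to 18 alternatives per call. Of 126 calls among the members, 48 held in all of them, and for the others described here the settings that ended the call, or their number, are given. Scaling sets the average change of all genes near 0, so a change of all mRNAs alike could not be seen.

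With all 5 states in 1 fit, 2 factors were called in mRNA in quiescent cells and 4 after irradiation, while after etoposide 13 fell and 3 rose. Of the 45 members, 44 were tested in RNA-seq and 42 in Ribo-seq. In quiescent cells 1 rose and 1 fell in mRNA, at a background of 15.5% of all genes called (5.18% higher, 10.4% lower). After irradiation 2 rose and 2 fell (background 34.9%, with 16.1% higher and 18.7% lower), and after etoposide 16 changed (background 34.5%, with 16.8% higher and 17.8% lower). The average of irradiated and etoposide-treated cells, called the senescent mean, gave 1 rise and 12 falls against quiescent cells (background 34.1%, with 16.6% higher and 17.6% lower). Irradiated cells against etoposide-treated cells gave 10 rises and 0 falls (background 22.5%, with 9.65% higher and 12.8% lower). Under thapsigargin 2 rose and 11 fell (background 24.5%, with 11.7% higher and 12.8% lower). EIF4A1, which had few counts, was the fall in quiescent cells and is among the falls after irradiation, after etoposide and under thapsigargin.

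The counts depended on single libraries and on the groups fitted. When only the groups compared were fitted, 12 members were called in mRNA after irradiation (6 higher, 6 lower), in place of 4, and 3 under thapsigargin, in place of 13. Without cycling RNA-seq library 1, 5 members were called after etoposide and 4 under thapsigargin. Without etoposide RNA-seq library 2, 2 were called between the senescent states, and with library totals as the only scaling 5 were. The median change of the members was -0.14 after etoposide, -0.19 under thapsigargin and 0.23 for irradiated over etoposide-treated cells, beside 0.00, -0.03 and 0.06 for all genes tested.

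Footprints gave 3 to 20 calls among the members per comparison. In quiescent cells 2 members rose and 1 fell (background 22.6%, with 7.66% higher and 14.9% lower). After irradiation 7 rose and 4 fell (background 40%, with 18% higher and 22.1% lower), and after etoposide 6 rose and 5 fell (background 33.6%, with 17.8% higher and 15.8% lower). The senescent mean over quiescent cells gave 4 rises and 3 falls (background 26.3%, with 13.4% higher and 12.9% lower). Between the senescent states 4 were higher and 1 lower after irradiation (background 21.2%, with 6.51% higher and 14.7% lower). Under thapsigargin 12 rose and 8 fell (background 44.3%, with 18.2% higher and 26.1% lower). Footprint calls in quiescent cells fell to 0 without cycling Ribo-seq library 1, with 2 as the highest count when another library was left out.

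Translational efficiency was called for members only under thapsigargin, where 10 rose and 1 fell among 42 tested (background 21%, with 9.52% higher and 11.4% lower). With RNA-seq and Ribo-seq libraries paired by replicate number, 8 rose and 0 fell there. In the other 5 comparisons edgeR called 0 members. All-gene backgrounds were 0% for quiescent over cycling and irradiated over etoposide-treated cells, 0.0598% after irradiation (0.0342% higher, 0.0256% lower), 0.0683% after etoposide (0.0256% higher, 0.0427% lower) and 0.0598% for the senescent mean over quiescent cells (0.0256% higher, 0.0342% lower). At an unadjusted p under 0.05 these comparisons held 2 members in quiescent cells, 4 after irradiation, 3 after etoposide, 12 for the senescent mean and 2 between the senescent states. DESeq2 called 2 members for the senescent mean and 0 in the other 4. Data were simulated for all 27 libraries, with 1 dispersion shared by all genes and changes set in the irradiated Ribo-seq libraries alone. On them the same test of irradiated over cycling cells found 43.4% of 2-fold and 93% of 4-fold changes in efficiency. These shares need not hold for genes with a wider spread, and the other comparisons were not tested on simulated data.

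**Figure D1:**
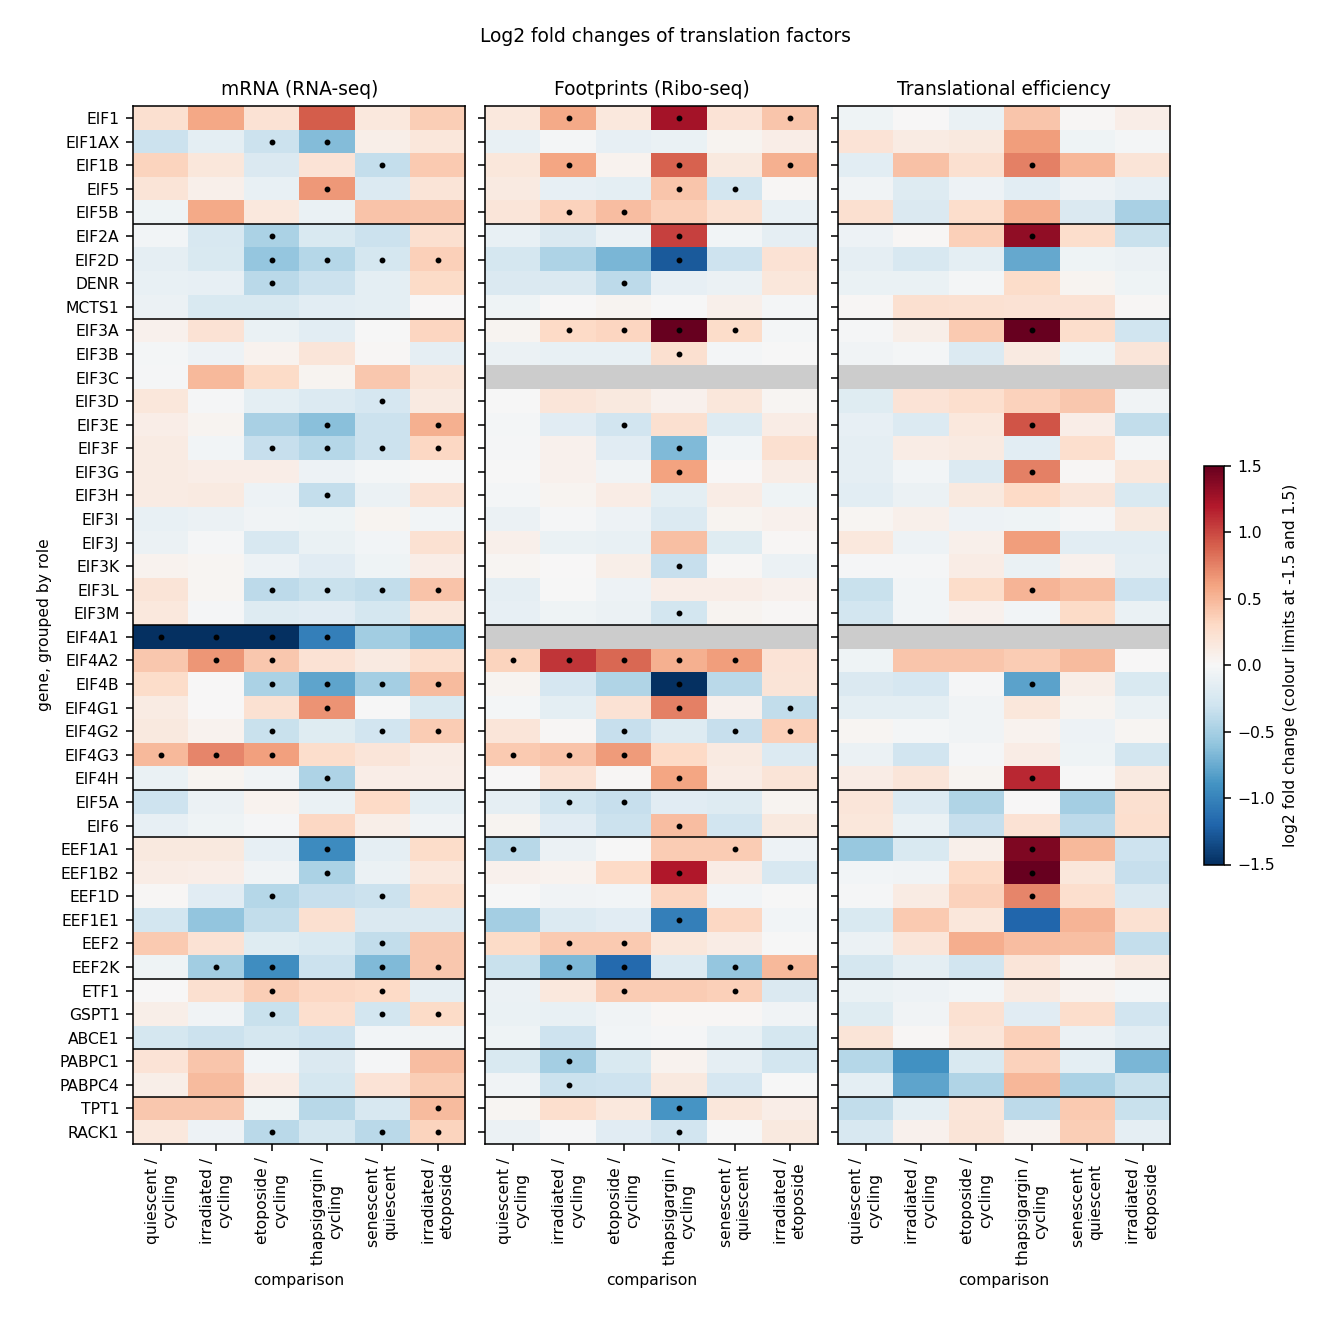
Log2 fold changes of 44 members (rows, by role) in 6 comparisons (columns) for mRNA, footprints and translational efficiency; dots mark edgeR adjusted p under 0.05, grey marks genes not tested, and colours saturate at -1.5 and 1.5. The efficiency panel has dots in the thapsigargin column alone, 11 in number, and the mRNA column of irradiated over etoposide-treated cells has 10, all of them higher.

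Among the start codon factors, EIF1 and its paralogue EIF1B had more footprints after irradiation and under thapsigargin. EIF1 keeps the scanning subunit open until a start codon is matched. Its footprints were 482, 538 and 594 CPM in cycling cells, 575, 551 and 681 in quiescence, 765, 761 and 876 after irradiation, 637, 613 and 551 after etoposide, and 1230.0 and 1322 under thapsigargin. Every irradiated and every thapsigargin library lay above all cycling libraries, and the other states overlapped. The change was 0.57 ± 0.11 (adjusted p = 0.000751) after irradiation and 1.25 ± 0.12 (adjusted p = 3.18e-06) under thapsigargin, and both calls held. Irradiated cells also exceeded etoposide-treated cells by 0.42 ± 0.11 (adjusted p = 0.0125), a call that ended without etoposide Ribo-seq library 3 (0.36). EIF1 mRNA was 152 and 192 CPM in cycling cells, 196, 265 and 146 in quiescence, 272, 225 and 272 after irradiation, 150.0, 189 and 258 after etoposide, and 158 and 485 under thapsigargin. The second thapsigargin library was the highest and the first lay within the cycling range, and the estimate of 0.90 ± 0.40 (adjusted p = 0.124) was not called.

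EIF1B footprints were 76.3, 85.7 and 70.4 CPM in cycling cells, 91.7, 88.1 and 82.7 in quiescence, 131, 116 and 103 after irradiation, 81.1, 78.4 and 82.4 after etoposide, and 126 and 161 under thapsigargin. All irradiated and thapsigargin libraries exceeded every cycling and every etoposide library. They rose by 0.59 ± 0.12 (adjusted p = 0.00135) after irradiation and by 0.89 ± 0.14 (adjusted p = 0.000167) under thapsigargin, and irradiated cells exceeded etoposide-treated cells by 0.54 ± 0.12 (adjusted p = 0.00565); all these calls held. EIF1B mRNA was 31.6 and 30.3 CPM in cycling cells, 38.6, 31.9 and 46.6 in quiescence, 36.4, 32.6 and 35.3 after irradiation, 25.9, 25.0 and 28.7 after etoposide, and 31.3 and 39.9 under thapsigargin. The etoposide libraries were the lowest of all, and quiescent library 3 was the highest. The senescent mean differed from quiescent cells by -0.36 ± 0.12 (adjusted p = 0.0346), which ended without quiescent library 3 (-0.22) and without 6 other single libraries of these groups. Its efficiency under thapsigargin was called at 0.76 ± 0.22 (adjusted p = 0.0159) and ended in 5 of 17 alternatives, among them the loss of thapsigargin Ribo-seq library 2 (0.49).

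EIF5, which makes eIF2 hydrolyse GTP at the start codon, had mRNA at 351 and 339 CPM in cycling cells, 373, 400.3 and 407 in quiescence, 361, 344 and 386 after irradiation, 299, 322 and 334 after etoposide, and 552 and 536 under thapsigargin. Both thapsigargin libraries exceeded all others, and the rise of 0.66 ± 0.11 (adjusted p = 0.000938) held. Its footprints rose by 0.42 ± 0.12 (adjusted p = 0.0120) there, with 276 and 239.6 CPM against 189, 191 and 199 in cycling cells, and the call ended without thapsigargin Ribo-seq library 1 (0.30). EIF5B, the GTPase that joins the subunits, had 230.3, 235 and 197 CPM of footprints in cycling and 305, 297 and 313 in etoposide-treated cells. These groups did not overlap, the rise was 0.47 ± 0.13 (adjusted p = 0.0121), and it ended without cycling library 3 (0.36). Its rise after irradiation, 0.35 ± 0.13, ended in 7 of 15 alternatives. EIF1AX, a partner of EIF1 on the scanning subunit, had mRNA at 143 and 131 CPM in cycling and 92.6 and 82.7 in thapsigargin-treated cells. It fell by 0.65 ± 0.13 (adjusted p = 0.00282), and the call ended when only these 2 groups were fitted (-0.61). It also fell after etoposide by 0.32, a call that ended in 8 of 14 alternatives.

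Of the 4 factors of non-canonical initiation and tRNA release, EIF2D, EIF2A and DENR fell in mRNA after etoposide, where 17.8% of all genes fell, and the calls of EIF2A and DENR ended in 5 of 14 alternatives each. EIF2D, which can release tRNA from the small subunit, had mRNA at 88.3 and 87.0 CPM in cycling cells, 88.2, 77.8 and 73.2 in quiescence, 68.6, 81.7 and 74.6 after irradiation, 61.8, 57.1 and 57.2 after etoposide, and 64.0 and 66.3 under thapsigargin. All etoposide libraries lay below those of cycling, quiescent and irradiated cells. The change after etoposide was -0.58 ± 0.11 (adjusted p = 0.00151) and held, and irradiated cells exceeded etoposide-treated cells by 0.35 ± 0.10 (adjusted p = 0.0244), a call that ended without irradiated library 2 (0.25) or 3 (0.36) and without etoposide library 2 or 3 (0.33 each). EIF2D footprints under thapsigargin were 4.57 and 26.6 CPM, from 9 and 54 counts, against 35.3, 39.1 and 38.5 CPM in cycling cells. The first of these libraries set the estimate of -1.26 ± 0.38 (adjusted p = 0.0154), which was -0.52 and not called without it, and the call also ended when only these groups were fitted (-1.22).

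EIF2A, an alternative carrier of initiator tRNA, had footprints at 86.0, 93.6 and 91.6 CPM in cycling cells, 89.4, 85.9 and 74.8 in quiescence, 75.8, 89.9 and 67.4 after irradiation, 80.7, 88.7 and 86.5 after etoposide, and 186 and 182 under thapsigargin. Both thapsigargin libraries were roughly double the cycling ones and apart from all other libraries. The footprint change was 1.03 ± 0.13 (adjusted p = 2.87e-05) and the efficiency change 1.33 ± 0.22 (adjusted p = 0.000266), and both held. EIF2A mRNA was 141 and 139 CPM in cycling cells, 141, 117 and 150.4 in quiescence, 119, 115 and 122 after irradiation, 113, 93.3 and 95.5 after etoposide, and 146 and 92.3 under thapsigargin. The thapsigargin libraries straddled the cycling ones (-0.23 ± 0.19, not called), and the etoposide libraries lay below them, at -0.48 ± 0.17 (adjusted p = 0.0421). That call ended without either cycling library or without etoposide library 2 (-0.43) or 3 (-0.44), and with RLE size factors (-0.45). DENR, which works with MCTS1 in reinitiation, had mRNA at 169 and 153 CPM in cycling and 126, 118 and 122 in etoposide-treated cells, a change of -0.40 ± 0.13 (adjusted p = 0.0330) that ended without any 1 of these 5 libraries (-0.47 to -0.33). DENR footprints changed by -0.39 ± 0.13 (adjusted p = 0.0335) there, which ended in 4 of 15 alternatives. MCTS1 was called in none of the 18 tests.

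The eIF3 complex binds the small subunit, recruits mRNA to it and keeps the subunits apart. In mRNA 0 of its 13 subunits rose in the 5 comparisons with cycling or quiescent cells, and 4 fell under thapsigargin, 2 after etoposide and 3 in the senescent mean, where 12.8%, 17.8% and 17.6% of all genes fell. EIF3A, its scaffold subunit, gained footprints under thapsigargin. EIF3A footprints were 559, 537 and 551 CPM in cycling cells, 549, 632 and 512 in quiescence, 708, 732 and 585 after irradiation, 741, 680.1 and 645 after etoposide, and 1909 and 1740.0 under thapsigargin. Both thapsigargin libraries exceeded every other library, while EIF3A mRNA was 404 and 414 CPM in cycling cells, 456, 405 and 419.6 in quiescence, 530.4, 454 and 438 after irradiation, 349, 361 and 432 after etoposide, and 349.9 and 383 under thapsigargin. The thapsigargin mRNA libraries lay below the cycling ones, at -0.16 ± 0.14 and not called. The footprint change was 1.73 ± 0.12 (adjusted p = 1.11e-07) and the efficiency change 1.96 ± 0.18 (adjusted p = 1.67e-07), the largest rise among the members in both, and both held. Smaller rises of footprints after irradiation (0.30 ± 0.10, adjusted p = 0.0337) and etoposide (0.33 ± 0.10, adjusted p = 0.0247) each ended in 7 of 15 alternatives, with estimates of 0.24 to 0.40 and 0.24 to 0.37.

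EIF3E, EIF3F and EIF3L had less mRNA after etoposide than in the other senescent state, and for EIF3E (0.53) and EIF3F (0.31) that call ended in 6 of 15 alternatives and 8 of 15 alternatives. EIF3F, a textbook TOP mRNA, was at 375 and 383 CPM in cycling cells, 451, 389 and 402 in quiescence, 350.4, 393 and 365 after irradiation, 304, 301 and 287 after etoposide, and 303 and 259.5 under thapsigargin. The etoposide and thapsigargin libraries lay below all others. The senescent mean differed from quiescent cells by -0.32 ± 0.08 (adjusted p = 0.00992), which held. The fall after etoposide (-0.35 ± 0.11, adjusted p = 0.0239) ended without either cycling library or without etoposide library 2 or 3, with estimates of -0.41 to -0.32 over all settings. Under thapsigargin EIF3F footprints were 85.9 and 76.9 CPM against 128, 121 and 137 in cycling cells, groups that did not overlap, with a change of -0.66 ± 0.11 (adjusted p = 0.000366) that held. Its mRNA fell there by 0.43 (adjusted p = 0.0192), a call that ended in 5 of 12 alternatives.

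EIF3L, a peripheral subunit, had mRNA at 250.2 and 234 CPM in cycling cells, 295, 276 and 260.5 in quiescence, 233, 265 and 247 after irradiation, 189, 183 and 182 after etoposide, and 199.8 and 185 under thapsigargin. The etoposide libraries were close together and below all cycling, quiescent and irradiated ones. Irradiated cells exceeded them by 0.43 ± 0.09 (adjusted p = 0.00473) and the senescent mean differed from quiescent cells by -0.37 ± 0.08 (adjusted p = 0.00265), and both held. The fall after etoposide was -0.39 ± 0.10 (adjusted p = 0.00914) and ended only without cycling library 1 (-0.35). Under thapsigargin EIF3L mRNA fell by 0.33, a call that ended in 9 of 12 alternatives. Its efficiency rose there by 0.51, a call that ended in 13 of 17, with estimates of 0.16 to 0.66. EIF3E, another TOP mRNA, was 449 and 456 CPM in cycling cells, 542, 385 and 529 in quiescence, 458, 441 and 498 after irradiation, 377, 287 and 304 after etoposide, and 354 and 233 under thapsigargin. Its etoposide and thapsigargin libraries were spread widely, from 287 to 377 and from 233 to 354 CPM, and all lay below the cycling ones. It fell under thapsigargin by 0.62 ± 0.20 (adjusted p = 0.0393), which without thapsigargin library 2 was -0.36 and not called, and which ended in 4 other alternatives. EIF3E footprints there were 289 and 294 CPM against 229.8, 232 and 278, higher in both libraries but not called. The efficiency rise of 0.94 ± 0.23 (adjusted p = 0.00620) ended only when those groups were fitted alone (0.87).

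EIF3G, which links eIF3 to scanning, had footprints at 411 and 516 CPM under thapsigargin against 324, 291 and 301 in cycling cells. The rise of 0.60 ± 0.11 (adjusted p = 0.000609) held, and the efficiency rise of 0.75 ± 0.19 (adjusted p = 0.00645) ended without thapsigargin Ribo-seq library 2 (0.50) or with only these groups (0.69). Of the complex, 3 of 12 tested subunits had more footprints under thapsigargin (EIF3A, EIF3B and EIF3G) and 3 had fewer (EIF3F, EIF3K and EIF3M), where 18.2% of all genes rose and 26.1% fell. The calls for EIF3B (0.24), EIF3K (-0.35) and EIF3M (-0.28) ended in 6 of 13, 4 of 13 and 9 of 13 alternatives. In mRNA, EIF3D was called once, for the senescent mean over quiescent cells (-0.26 ± 0.08, ended in 4 of 18 alternatives), and EIF3H once, under thapsigargin (-0.36 ± 0.12, ended in 9 of 12 alternatives). EIF3I and EIF3J were called in no test. EIF3C, whose sequence has a near-identical copy, had 60 to 501 mRNA counts and at most 19 footprint counts per library, and was not tested in Ribo-seq.

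In the eIF4 group, the helicase EIF4A2 and the scaffold EIF4G3 rose in both senescent states. EIF4A2 footprints were 142, 173 and 158 CPM in cycling cells, 208, 192 and 197 in quiescence, 333, 351 and 308 after irradiation, 286, 286 and 285 after etoposide, and 199 and 256 under thapsigargin. Cycling, quiescent, etoposide-treated and irradiated cells formed 4 ranges that did not overlap, in that order from low to high. The rises were 1.07 ± 0.11 (adjusted p = 3.39e-06) after irradiation, 0.86 ± 0.11 (adjusted p = 2.33e-05) after etoposide and 0.63 ± 0.09 (adjusted p = 0.000202) for the senescent mean over quiescent cells, and these 3 held. The step from cycling to quiescent cells, 0.33 ± 0.11 (adjusted p = 0.0338), ended in 5 of 15 alternatives, 4 of them single libraries. EIF4A2 mRNA was 287 and 282 CPM in cycling cells, 405, 315 and 408 in quiescence, 444, 469.8 and 435 after irradiation, 413, 361 and 356 after etoposide, and 375 and 286 under thapsigargin. All arrested libraries exceeded the cycling ones, the irradiated most, with a rise of 0.66 ± 0.14 (adjusted p = 0.00311) that held. The rise after etoposide, 0.41 ± 0.14 (adjusted p = 0.0425), ended in 7 of 14 alternatives, namely without any 1 of the cycling or etoposide libraries (0.34 to 0.45), with library totals (0.34) and with no low-count filter (0.40). Under thapsigargin EIF4A2 footprints rose by 0.53 ± 0.12 (adjusted p = 0.00295), which ended without thapsigargin Ribo-seq library 2 (0.32). Efficiency changes of 0.42 ± 0.17 and 0.41 ± 0.17 in these comparisons were not called.

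EIF4G3, a paralogue of the cap-complex scaffold EIF4G1, had mRNA at 108 and 111 CPM in cycling cells, 137, 169.7 and 154 in quiescence, 192, 170.5 and 182 after irradiation, 179, 152 and 171 after etoposide, and 131 and 132 under thapsigargin. Its footprints were 128, 140.3 and 132 CPM in cycling cells, 180.3, 181 and 164 in quiescence, 192, 179.9 and 166 after irradiation, 204, 207 and 209.9 after etoposide, and 191 and 137 under thapsigargin. In both measures all quiescent, irradiated and etoposide libraries exceeded all cycling libraries. The mRNA rose by 0.73 ± 0.12 (adjusted p = 0.000354) after irradiation and 0.61 ± 0.12 (adjusted p = 0.00128) after etoposide, and footprints by 0.43 ± 0.11 (adjusted p = 0.00798) and 0.63 ± 0.11 (adjusted p = 0.000585); these 4 calls held. In quiescent cells mRNA rose by 0.49 ± 0.12 (adjusted p = 0.0130), which ended without either cycling library (0.47 and 0.50) or when these groups were fitted alone (0.48). Footprints rose there by 0.39 ± 0.11 (adjusted p = 0.0213), which ended without cycling library 1 or 3 or quiescent library 2 (0.36 to 0.38).

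EIF4G2, a relative of EIF4G1 that lacks the site for the cap-binding protein, moved the other way after etoposide. Its footprints were 795, 818 and 864 CPM in cycling cells, 1036, 897 and 871 in quiescence, 877, 798 and 828 after irradiation, 623, 655 and 673 after etoposide, and 753 and 685 under thapsigargin. The etoposide libraries lay below every other library. The change was -0.34 ± 0.09 (adjusted p = 0.00690) against cycling cells, and the senescent mean differed from quiescent cells by -0.34 ± 0.07 (adjusted p = 0.00363); both held. Irradiated cells exceeded etoposide-treated cells by 0.36 ± 0.09 (adjusted p = 0.00852), a call that ended without irradiated library 1 (0.32). In mRNA the etoposide libraries read 1337, 1321 and 1315 CPM against 1699 and 1636 in cycling cells, a fall of 0.33 (adjusted p = 0.0294) that ended without any 1 of these libraries (-0.36 to -0.31). EIF4G1 itself had footprints at 619.6, 546 and 594 CPM in cycling cells, 513, 609 and 599 in quiescence, 541, 532 and 513 after irradiation, 687, 697 and 665 after etoposide, and 1037 and 949.8 under thapsigargin. Both thapsigargin libraries were the highest, with a rise of 0.76 ± 0.10 (adjusted p = 3.84e-05) that held. The etoposide libraries exceeded the irradiated ones, with a change of -0.37 for irradiated over etoposide-treated cells (adjusted p = 0.00751), and this ended without irradiated library 2 (-0.34) or 3 (-0.31) or etoposide library 1 or 2 (-0.32 each), and under library totals (-0.22). EIF4G1 mRNA under thapsigargin, 463 and 704 CPM against 338 and 395 in cycling cells, rose by 0.67 ± 0.19 (adjusted p = 0.0193); without thapsigargin library 2 it was 0.33 and not called, and without cycling library 1 (0.56) or 2 (0.79), or with only these groups (0.71), it also lost the call.

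EIF4B, which activates the helicase, is a TOP mRNA and was lower after etoposide and under thapsigargin. Its mRNA was 1157 and 1235 CPM in cycling cells, 1676, 1348 and 1305 in quiescence, 1239.9, 1171 and 1183 after irradiation, 914, 799 and 874 after etoposide, and 752 and 627 under thapsigargin. The etoposide and thapsigargin libraries lay below all others, and the irradiated ones overlapped the cycling ones. The change under thapsigargin was -0.79 ± 0.14 (adjusted p = 0.00144) and that of the senescent mean over quiescent cells -0.51 ± 0.10 (adjusted p = 0.00158), and both held. The fall after etoposide, -0.47 ± 0.13 (adjusted p = 0.0118), ended without cycling library 2 (-0.43) or etoposide library 2 (-0.42). The difference of irradiated over etoposide-treated cells, 0.47 ± 0.12 (adjusted p = 0.0101), ended without etoposide library 2 (0.42). EIF4B footprints under thapsigargin were 25.4 and 10.8 CPM, from 50 and 22 counts, against 54.0, 52.5 and 66.4 in cycling cells. The strand choice mattered: unstranded counts of the EIF4B footprints were 24.8% of the forward-strand counts in the other states and 59.7% under thapsigargin, on another gene list. With unstranded counts the footprint change went from -1.67 ± 0.24 (adjusted p = 0.000111) to -0.27 and was not called. The efficiency change went from -0.80 ± 0.27 (adjusted p = 0.0389) to 0.38 (adjusted p = 0.485), a reversed sign. It lost its call in 7 further alternatives of 17: with the replicate block (-0.73, adjusted p = 0.0584), with only these groups (-0.87) and without 1 of 5 single libraries (-0.85 to -0.39).

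EIF4H, a smaller partner of the helicase, had footprints at 150.4 and 206 CPM under thapsigargin against 124, 105 and 125 in cycling cells, and mRNA at 316 and 326 against 445 and 441 CPM. Footprints were higher and mRNA lower with no overlap in either. The efficiency rise of 1.13 ± 0.20 (adjusted p = 0.000410) held. The footprint rise of 0.59 ± 0.15 ended without thapsigargin Ribo-seq library 2 (0.34), and the mRNA fall of 0.46 ended without either cycling library, without thapsigargin library 1 (-0.44) or with only these groups (-0.43). EIF4A1, the main helicase gene, is crossed by the readthrough gene SENP3-EIF4A1 and by snoRNA genes, and reads over several genes were not counted. It had 147 and 86 mRNA counts in cycling cells, 21 to 144 in the other RNA-seq libraries and at most 7 footprint counts. Its called falls in mRNA, among them -2.44 ± 0.31 after irradiation, rest on these few counts and do not measure the whole gene. The fall under thapsigargin, -1.03 ± 0.31, also ended in 5 of 12 alternatives.

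**Figure D2:**
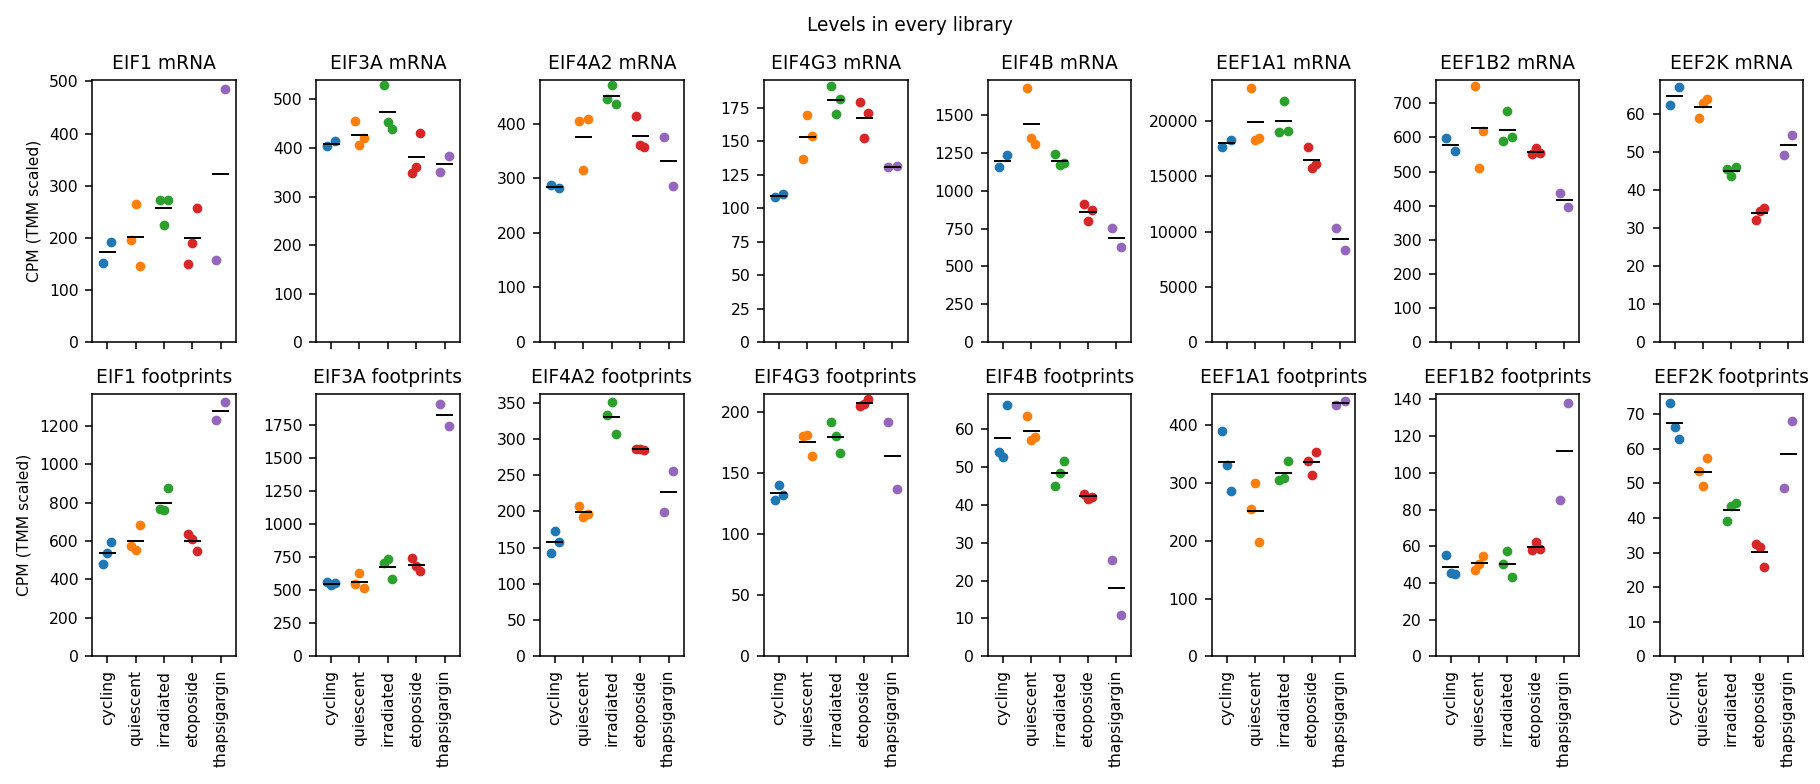
CPM after TMM scaling in every library for 8 members, mRNA above and footprints below; points are libraries, bars are group means, and each axis starts at 0. EEF2K steps down from cycling to irradiated to etoposide-treated cells in both rows, and EIF3A footprints reach 1740 and 1909 CPM under thapsigargin with no such step in mRNA.

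EIF5A, which helps ribosomes past stretches that stall, had footprints at 918, 866 and 889 CPM in cycling cells, 852, 870.2 and 712 in quiescence, 732, 764 and 672 after irradiation, 677, 689 and 738 after etoposide, and 735 and 853 under thapsigargin. All senescent libraries lay below all cycling ones. The fall after etoposide, -0.35 ± 0.10 (adjusted p = 0.0116), held, and that after irradiation, -0.30 ± 0.10 (adjusted p = 0.0205), ended without cycling library 1 (-0.28) or irradiated library 1 (-0.31) or 3 (-0.24), and with library totals (-0.24). EIF5A mRNA was spread from 367 to 662 CPM over the RNA-seq libraries and was called in no comparison. EIF6, which binds the large subunit and keeps it from joining early, had footprints at 344 and 279 CPM under thapsigargin against 259.9, 194 and 228 in cycling cells. The rise of 0.46 ± 0.15 (adjusted p = 0.0259) ended without thapsigargin library 1 (0.28) or cycling library 2 (0.36), or with only these groups (0.50).

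Among the elongation genes, EEF2K had 8 calls in 18 tests, more than any other member. It encodes the kinase that phosphorylates EEF2 and so slows elongation. EEF2K mRNA was 62.5 and 67.2 CPM in cycling cells, 59.0, 62.9 and 64.0 in quiescence, 45.5, 43.8 and 46.1 after irradiation, 32.2, 34.6 and 35.4 after etoposide, and 49.2 and 54.7 under thapsigargin. Its footprints were 73.3, 66.3 and 62.9 CPM in cycling cells, 53.5, 49.2 and 57.5 in quiescence, 39.1, 43.5 and 44.3 after irradiation, 32.6, 31.7 and 25.8 after etoposide, and 48.8 and 68.0 under thapsigargin. In both measures every irradiated library lay below every cycling and quiescent one, and every etoposide library below every irradiated one. The mRNA fell by 0.52 ± 0.11 (adjusted p = 0.00176) after irradiation and by 0.93 ± 0.11 (adjusted p = 1.66e-05) after etoposide. Footprints fell by 0.68 ± 0.14 (adjusted p = 0.00163) and by 1.17 ± 0.14 (adjusted p = 1.89e-05). The senescent mean differed from quiescent cells by -0.66 ± 0.08 (adjusted p = 4.41e-05) in mRNA and -0.58 ± 0.12 (adjusted p = 0.00226) in footprints. These 6 calls held, as did the difference between the senescent states in mRNA, 0.41 ± 0.10 (adjusted p = 0.00793). In footprints that difference was 0.49 ± 0.15 (adjusted p = 0.0283) and ended without any 1 irradiated library (0.49 to 0.55) or etoposide library 3 (0.39). Efficiency was not called in any comparison.

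EEF2, the translocase that EEF2K acts on, had footprints at 2480.5, 1977 and 2351 CPM in cycling cells, 2493, 2616 and 3209 in quiescence, 2778, 2947 and 3212 after irradiation, 3104, 3027 and 2833 after etoposide, and 2518 and 2579 under thapsigargin. All irradiated and etoposide libraries exceeded all cycling libraries, and so did the quiescent ones, which overlapped the senescent ranges. The rises were 0.39 ± 0.11 (adjusted p = 0.00911) after irradiation, which ended without irradiated library 3 (0.34), and 0.40 ± 0.11 (adjusted p = 0.0102) after etoposide, which ended without cycling library 2 (0.31) or etoposide library 1 (0.33) or 2 (0.36). EEF2 mRNA was 3568 and 3854 CPM in cycling cells, 6170.1, 4678 and 3717 in quiescence, 4388, 4649 and 3921 after irradiation, 3073, 3189.6 and 3523 after etoposide, and 2924 and 3428 under thapsigargin. Quiescent library 1 stood above all others. The senescent mean differed from quiescent cells by -0.37 ± 0.13 (adjusted p = 0.0458), and without quiescent library 1 this was -0.16 and not called. That call ended in 11 of 18 alternatives.

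EEF1A1, which brings aminoacyl-tRNA to the ribosome and was the most counted member in mRNA, was at 17652 and 18298 CPM in cycling cells, 22951, 18285 and 18490.3 in quiescence, 18983, 21805 and 19082 after irradiation, 17630.3, 15773 and 16109.9 after etoposide, and 10298 and 8334 under thapsigargin. Both thapsigargin libraries lay far below all others. The fall was -0.95 ± 0.15 (adjusted p = 0.000631) and held. Its footprints were 391, 332 and 286 CPM in cycling cells, 255, 301 and 198 in quiescence, 305, 309 and 339 after irradiation, 339, 314 and 355 after etoposide, and 435 and 442 under thapsigargin. The thapsigargin libraries were the highest here, with a footprint change of 0.38 ± 0.16 (adjusted p = 0.0618) that missed the threshold, and the efficiency rose by 1.40 ± 0.22 (adjusted p = 0.000167), which held. In quiescent cells footprints changed by -0.42 ± 0.14 (adjusted p = 0.0435), which ended in 6 of 15 alternatives, among them the loss of cycling library 1 (-0.30), cycling library 2 (-0.43), quiescent library 1 (-0.43) or quiescent library 3 (-0.29). Against quiescent cells the senescent mean of its footprints was higher by 0.38 ± 0.12 (adjusted p = 0.0353), which ended in 10 of 18 alternatives. EEF1A1 has many processed pseudogenes, and reads that map to several places are in no gene's count.

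The exchange factor that reloads EEF1A1 with GTP is built from EEF1B2, EEF1D and EEF1G. EEF1B2 mRNA was 597 and 559 CPM in cycling cells, 749.7, 509.9 and 619 in quiescence, 588, 677 and 601 after irradiation, 551, 568 and 555 after etoposide, and 436 and 395 under thapsigargin. Its footprints were 55.3, 45.6 and 44.7 CPM in cycling cells, 47.2, 50.5 and 54.6 in quiescence, 50.5, 57.5 and 43.1 after irradiation, 58.0, 62.2 and 58.4 after etoposide, and 85.4 and 138 under thapsigargin. Under thapsigargin mRNA was the lowest and footprints the highest of all states, with no overlap in either. The footprint rise of 1.20 ± 0.18 (adjusted p = 0.000144) and the efficiency rise of 1.75 ± 0.25 (adjusted p = 4.37e-05) held. The mRNA fall of 0.48 ± 0.15 (adjusted p = 0.0380) ended without any 1 of the cycling or thapsigargin libraries (-0.55 to -0.41), with library totals (-0.38) and with only these groups (-0.44). EEF1D mRNA was 329, 322 and 306 CPM after etoposide against 429.7 and 427 in cycling cells, a change of -0.43 ± 0.14 (adjusted p = 0.0357) that ended in 6 of 14 alternatives: without any 1 of these libraries (-0.45 to -0.39) and with the replicate block (-0.35, adjusted p = 0.0651). EEF1D efficiency under thapsigargin, 0.74 ± 0.22 (adjusted p = 0.0212), dropped to 0.04 with unstranded counts, which were 13.6% to 21.4% of the stranded ones for this gene. That call ended in 7 of 17 alternatives, which also include the replicate block (0.78, adjusted p = 0.0545), only these groups (0.67) and 4 single libraries (0.57 to 0.73). EEF1G had 0 counts in 26 of 27 libraries and 2 counts in quiescent RNA-seq library 2, so it was not tested and its level was not measured. EEF1E1, a scaffold of the tRNA synthetase complex, had footprints at 4.57 and 9.86 CPM under thapsigargin, from 9 and 20 counts, against 13.2, 14.9 and 16.4 in cycling cells. Its change of -1.03 ± 0.31 (adjusted p = 0.0141) was -0.60 and not called without thapsigargin library 1, and the call also ended when only these groups were fitted (-0.99).

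Of the termination genes, ETF1, the release factor that reads stop codons, rose in mRNA after etoposide, and GSPT1, its GTPase partner, fell in mRNA. ETF1 mRNA was 306 and 287 CPM in cycling cells, 297, 284 and 316 in quiescence, 334, 349.9 and 368 after irradiation, 389, 385 and 377 after etoposide, and 399.7 and 336 under thapsigargin. All etoposide libraries exceeded all cycling and quiescent ones. The rise over cycling cells was 0.37 ± 0.11 (adjusted p = 0.0167) and ended without cycling library 1 (0.42) or 2 (0.32) or with library totals (0.31). The senescent mean exceeded quiescent cells by 0.29 ± 0.08 (adjusted p = 0.0149), which ended without quiescent library 2 (0.27) and with library totals (0.21). GSPT1 mRNA was 199.6 and 196 CPM in cycling cells, 198, 224 and 208 in quiescence, 198, 174 and 203 after irradiation, 151, 162 and 160.4 after etoposide, and 230.2 and 243 under thapsigargin. The etoposide libraries lay below all others. The fall after etoposide was -0.33 ± 0.10 (adjusted p = 0.0256) and ended without any 1 of the cycling or etoposide libraries (-0.35 to -0.30). The senescent mean differed from quiescent cells by -0.27 ± 0.08 (adjusted p = 0.0178), which ended without quiescent library 2 (-0.21). The difference of irradiated over etoposide-treated cells, 0.28 ± 0.09, ended in 13 of 15 alternatives. ETF1 footprints rose by 0.38 after etoposide and by 0.36 for the senescent mean over quiescent cells. These calls ended in 10 of 15 and 9 of 18 alternatives. GSPT1 footprints were 285, 286 and 246 CPM after etoposide against 301, 280 and 270 in cycling cells, and were called in no comparison. ABCE1, which splits ribosomes after release, was called in no test.

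The poly(A)-binding proteins, which join the mRNA tail to the cap complex, had fewer footprints after irradiation. PABPC1 footprints were 178, 152 and 205 CPM in cycling cells, 137, 161 and 158 in quiescence, 123, 114 and 140.1 after irradiation, 162, 142 and 152 after etoposide, and 170.2 and 199 under thapsigargin. All irradiated libraries lay below all cycling ones, and the change of -0.50 ± 0.13 (adjusted p = 0.00535) held. PABPC1 mRNA was 517 and 636 CPM in cycling cells, 731, 729 and 537 in quiescence, 899, 606 and 805 after irradiation, 451, 524 and 701 after etoposide, and 292 and 699.7 under thapsigargin. These libraries were widely spread, the thapsigargin ones most, and no mRNA comparison was called. Its efficiency after irradiation was -0.91 ± 0.34 (adjusted p = 0.596), not called. PABPC4 footprints were 100.5, 80.3 and 109 CPM in cycling cells, 85.8, 95.5 and 97.1 in quiescence, 80.1, 75.9 and 76.1 after irradiation, 76.4, 81.6 and 76.2 after etoposide, and 113 and 102 under thapsigargin. The irradiated libraries lay at or just below the lowest cycling library, and the change of -0.32 ± 0.12 (adjusted p = 0.0439) ended in 10 of 15 alternatives. PABPC4 mRNA was 337, 302 and 318 CPM after irradiation against 209 and 249 in cycling cells, higher in every library but not called at 0.48 ± 0.19 (adjusted p = 0.0738).

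RACK1, a scaffold on the small subunit, had mRNA at 1827 and 1826 CPM in cycling cells, 2247, 1987 and 1875 in quiescence, 1623, 1923 and 1649 after irradiation, 1419.8, 1363 and 1340.2 after etoposide, and 1639.8 and 1400.5 under thapsigargin. The etoposide libraries lay below all cycling, quiescent and irradiated ones. The senescent mean differed from quiescent cells by -0.40 ± 0.09 (adjusted p = 0.00468), which held. The fall after etoposide, -0.41 ± 0.12 (adjusted p = 0.0174), ended without either cycling library (-0.41 each) or etoposide library 2 (-0.40) or 3 (-0.39). The difference of irradiated over etoposide-treated cells, 0.33 ± 0.11 (adjusted p = 0.0406), ended in 8 of 15 alternatives. RACK1 footprints fell under thapsigargin by 0.29 ± 0.09 (adjusted p = 0.0210), which ended in 4 of 13 alternatives. TPT1, an abundant growth-associated protein, had mRNA at 3327 and 2737 CPM in cycling cells, 4809, 2957 and 4311 in quiescence, 3782, 4421 and 3876 after irradiation, 2908, 2829.8 and 2952 after etoposide, and 2226 and 2327 under thapsigargin. The irradiated libraries exceeded the etoposide ones without overlap, by 0.48 ± 0.15 (adjusted p = 0.0395), a call that ended in 9 of 15 alternatives: without any 1 of these libraries (0.37 to 0.52), with RLE size factors (0.45), with library totals (0.44) and without the thapsigargin libraries (0.44). TPT1 footprints under thapsigargin were 217 and 156 CPM against 324, 298 and 406 in cycling cells, and the change of -0.88 ± 0.15 (adjusted p = 0.000410) held.

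Read as a list, the 12 textbook TOP mRNAs, of which 11 were tested, shared the sign of their mRNA estimates in 5 of 6 comparisons. This list was chosen with earlier results of these data known. In quiescent over cycling cells all 11 had a positive estimate, with a median of 0.15 and 0 called by edgeR (2 at an unadjusted p under 0.05). For each of the 11, library 1 was the highest quiescent library. EEF1B2, EIF3E and EIF3H lay below both cycling libraries in quiescent library 2, and EEF1D did in library 3. The same quiescent libraries enter the comparison with the senescent mean. After irradiation 8 of 11 were positive, with a median of 0.11 and 0 called (1 unadjusted). After etoposide 0 of 11 were positive, with a median of -0.19 and 4 called lower (17.8% of all genes). For the senescent mean over quiescent cells 0 of 11 were positive, with a median of -0.32 and 5 called lower (17.6% of all genes). For irradiated over etoposide-treated cells all 11 were positive, with a median of 0.33 and 5 called higher (9.65% of all genes). Under thapsigargin 0 of 11 were positive, with a median of -0.41 and 6 called lower (12.8% of all genes). Each of the 4 calls after etoposide and the 5 between the senescent states ended in at least 1 alternative. Those that held in every alternative were EIF3F, EIF4B and RACK1 for the senescent mean, and EEF1A1 and EIF4B under thapsigargin.

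The 33 other members had mRNA medians of -0.02, -0.02, -0.12, -0.04, 0.17 and -0.11 in the same order, and the difference between the lists was not tested. Medians of all genes lay between -0.03 and 0.06. The sign of the TOP median in mRNA was the same under RLE size factors, library totals, no filter, DESeq2 and unstranded counts. Medians of the list without single libraries are not given here. Comparisons in this list share control libraries, so their values are given side by side and not as separate evidence.

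The efficiency estimates of the TOP mRNAs had medians over cycling cells of -0.16 in quiescence, -0.09 after irradiation and 0.16 after etoposide, and 0.25 for the senescent mean over quiescent cells, -0.31 for irradiated over etoposide-treated cells and 0.34 under thapsigargin. In quiescent cells, and between the senescent states, 0 of 11 were positive. For the senescent mean 10 of 11 were positive, 5 of them at an unadjusted p under 0.05 and 0 called by edgeR. Under thapsigargin EEF1A1, EEF1B2, EEF1D and EIF3E rose in efficiency and EIF4B fell. Of these calls only those of EEF1A1 and EEF1B2 held in every alternative. With unstranded counts EEF1D dropped to 0.04 and EIF4B turned to 0.38, neither of them called. With library totals alone the irradiated median turned to 0.07, and the others kept their sign. That scaling moved the median efficiency change of all genes to -0.24 under thapsigargin and 0.13 after irradiation, from -0.10 and -0.02.

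**Figure D3:**
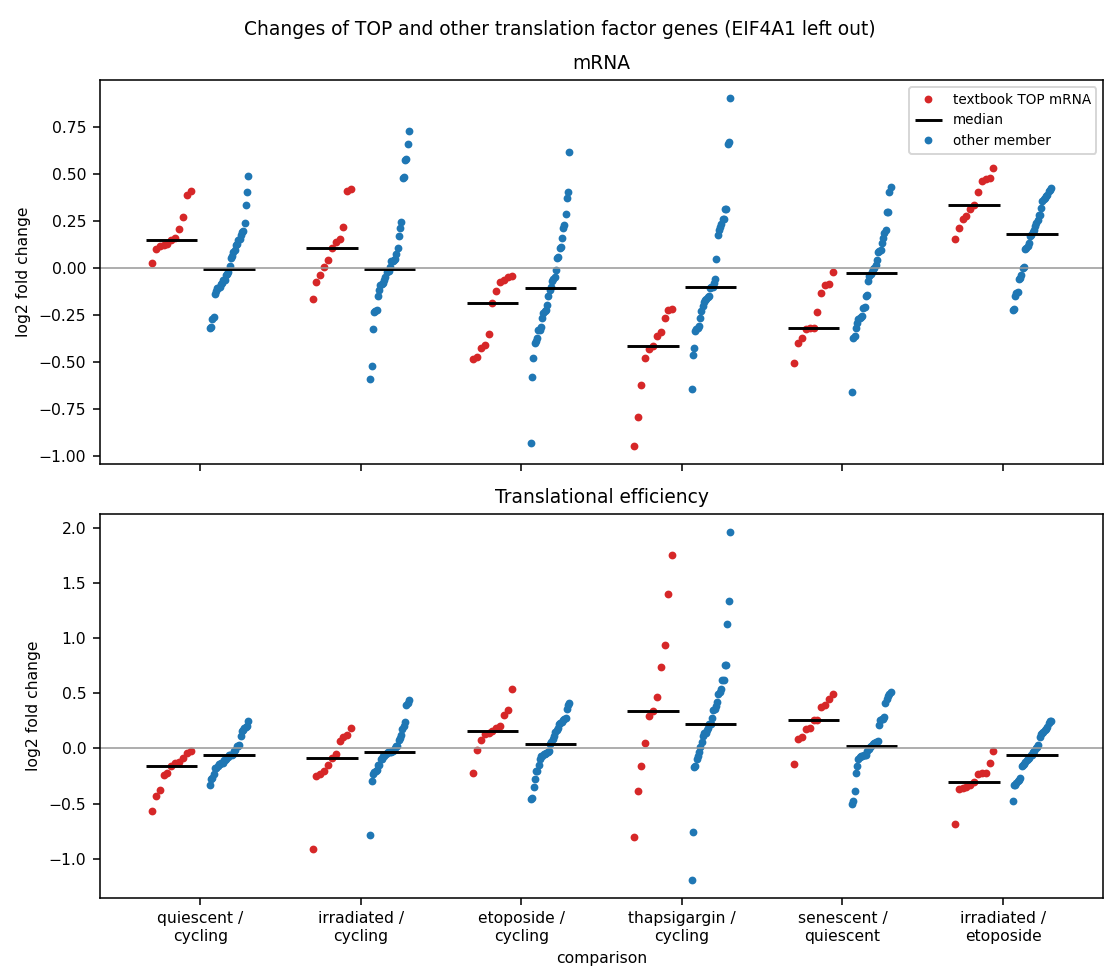
Log2 fold changes of mRNA (above) and translational efficiency (below) in 6 comparisons for the textbook TOP members (red) and the other members (blue, EIF4A1 left out); points are genes sorted by value and bars are medians. In mRNA the TOP points lie wholly above 0 for quiescent over cycling and irradiated over etoposide-treated cells, and wholly below 0 after etoposide, under thapsigargin and for the senescent mean over quiescent cells.

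The annotated starts were also used to divide the members, in place of the textbook list, with chromosome 8 left out for the members. Of the 13 members with a TOP start, 1 was positive in mRNA after etoposide, with a median of -0.19 against -0.12 for 23 members with a window and no such start. For irradiated over etoposide-treated cells all 13 were positive, with a median of 0.27 against 0.11. Under thapsigargin 1 of 13 was positive, with a median of -0.26 against -0.06. Over all tested genes the 795 with a TOP start had medians of -0.11, 0.17 and -0.14 in these comparisons, and the 10047 without one had 0.01, 0.05 and -0.02. In quiescent cells member mRNA was positive for 11 of 13, with a median of 0.16 against -0.07. After irradiation it was 7 of 13 (0.002 against -0.05), and for the senescent mean 1 of 13 (-0.26 against -0.003). Efficiency under thapsigargin was positive for 7 of 13, with a median of 0.05 against 0.18 for 21 members without such a start. The efficiency medians of the 13 in the other comparisons, in the order used above, were -0.13, -0.02, 0.18, 0.29 and -0.14. For the 21 members without such a start they were -0.05, -0.06, -0.03, -0.02 and 0.01. Over all tested genes with a TOP start they were -0.04, -0.01, 0.07, 0.05 and -0.07. Footprint medians of the 13 were -0.01, 0.004, -0.002, 0.04 and 0.03 in these comparisons. Under thapsigargin the footprint median was -0.28, against 0.24 for the 21 without such a start.

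**Figure D4:**
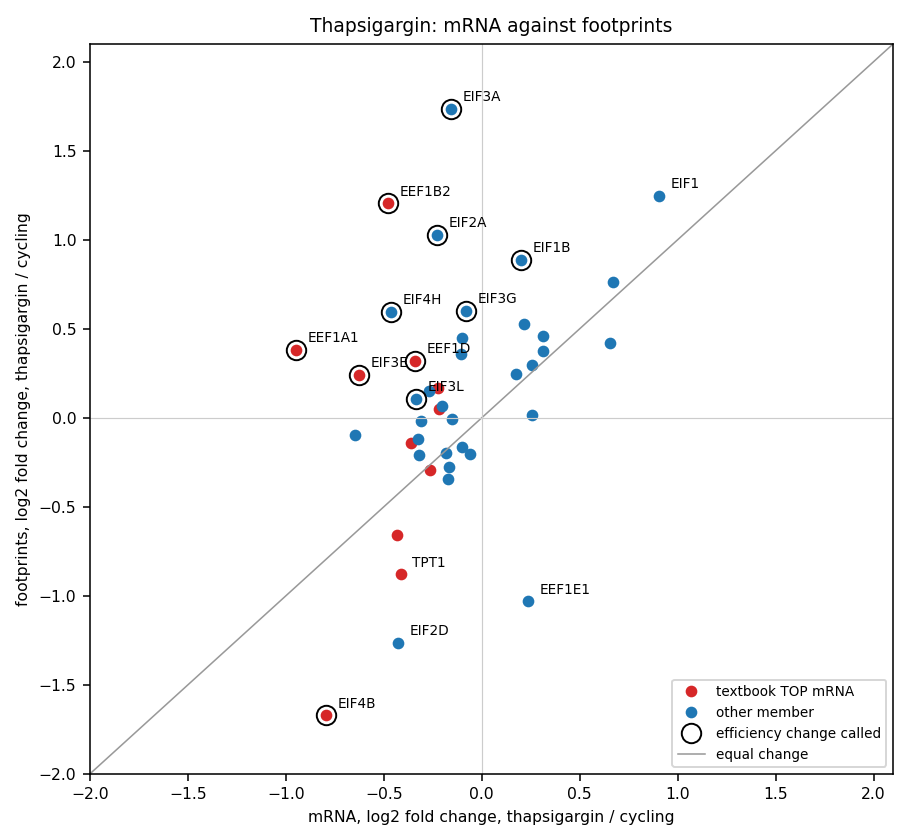
Footprint against mRNA log2 fold change under thapsigargin for the 42 members tested in both; red points are textbook TOP mRNAs, rings mark a called change in efficiency, and the diagonal marks equal change. EIF3A, EEF1B2 and EEF1A1 lie farthest above the diagonal among ringed points, and EIF4B is the only ringed point below it.

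Other translation genes, 30 in number and none of them members, were read for comparison, and 29 were tested in RNA-seq and 27 in Ribo-seq. In mRNA 2 rose in quiescent cells, 4 rose and 2 fell after irradiation, 3 rose and 2 fell after etoposide, and 2 rose and 6 fell under thapsigargin, where 15.5%, 34.9%, 34.5% and 24.5% of all genes were called in either direction. In footprints 1 rose and 1 fell, 5 rose and 3 fell, 5 rose and 1 fell, and 3 rose and 8 fell in the same order, beside 22.6%, 40%, 33.6% and 44.3% of all genes. EIF4EBP1, which blocks the cap-binding protein, fell by 1.29 ± 0.13 in mRNA after etoposide (adjusted p = 8.24e-06) and by 0.42 after irradiation. EIF4EBP2, its paralogue, rose by 0.65 ± 0.13 and 0.74 ± 0.13 in these states, and its footprints fell under thapsigargin by 1.71 ± 0.23 (adjusted p = 5.99e-05). PELO, which rescues stalled ribosomes, had more footprints after irradiation (0.90 ± 0.11), etoposide (1.05 ± 0.11) and thapsigargin (1.37 ± 0.12). PDCD4, an inhibitor of the eIF4A helicase, had more mRNA in quiescent (0.55 ± 0.15), irradiated (0.95 ± 0.15) and etoposide-treated cells (0.50 ± 0.15). No alternatives were run for these genes. In bulk libraries such as these, fewer cells with an mRNA and less of it per cell cannot be told apart.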

How the data were processed

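The authors deposited 1 table of raw gene counts per library. Per the submitters' processing notes, reads were converted with bcl2fastq and aligned with STAR 2.7.10b to hg38, and DESeq2 1.36.0 was used. The deposited tables have the layout of STAR's gene counts, with 3 count columns by strand, and the settings of the counting are not given in the sources used here. The reverse-strand column was read for RNA-seq and the forward-strand column for Ribo-seq, since these hold most gene counts. Reads mapping to several places or to several genes are counted for no gene. Molecular identifiers are not given in the sources used here.

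Libraries were assigned to states and assays by title. A label of the thapsigargin RNA-seq libraries calls them protected fragments, against their titles, and the labels and the design text give different RNase incubation times. The gene lists of the tables differ between the thapsigargin Ribo-seq libraries and the other Ribo-seq ones, and the 60534 IDs shared by all were kept.

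Symbols came from an Ensembl name table and biotypes from RefSeq GRCh38.p14, whose protein-coding genes (19310) were tested. In R 4.3.3, edgeR 4.0.16 fitted the 5 states of an assay together, with filterByExpr, TMM scaling and the robust quasi-likelihood F test. Translational efficiency was the interaction of library type and state over all 27 libraries. Benjamini-Hochberg adjustment ran over 13312, 11760 and 11712 genes for mRNA, footprints and efficiency, with a threshold of 0.05. On simulated data for irradiated over cycling cells, 79.8% of 2-fold and 96.0% of 4-fold changes were recovered in mRNA (12975 genes), 79.6% and 99.0% in footprints (11502 genes), and 43.4% and 93% in efficiency (11457 genes). The simulation gave all genes of a readout the same dispersion and set changes in irradiated libraries alone. Transcription starts were read from RefSeq promoter windows matched by symbol. For the members, windows on chromosome 8 were not used, while the values over all genes did not exclude them.

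The alternatives were RLE size factors, library totals as the only scaling, no low-count filter, DESeq2 1.42.0, unstranded counts, all biotypes, the replicate number as a block, a fit of only the groups compared, and each library left out in turn. A fit without the thapsigargin libraries was added after seeing the data.

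The members, the textbook TOP list, the roles and the other pathway genes were chosen with earlier results of these data known. A rule named 22 members, and the others are described by role, chosen after their values were seen. Counts of replicate pairs differed by 1.96 to 133 times the sampling variance, so no library was a copy of another. The highest value belonged to the 2 thapsigargin RNA-seq libraries, in which 38.0% and 19.7% of reads mapped to several places. Quiescent RNA-seq libraries 1 and 3 reached 125.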

Additional observations from a re-analysis of the deposited data

Results flagged for a closer look

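The 2 senescent states differed by edgeR's test of the contrast of irradiated over etoposide-treated cells for 15 results among the members. In mRNA the log2 differences were 0.41 for EEF2K, 0.35 for EIF2D, 0.53 for EIF3E, 0.31 for EIF3F, 0.43 for EIF3L, 0.47 for EIF4B, 0.38 for EIF4G2, 0.28 for GSPT1, 0.33 for RACK1 and 0.48 for TPT1. In footprints they were 0.49 for EEF2K, 0.42 for EIF1, 0.54 for EIF1B, -0.37 for EIF4G1 and 0.36 for EIF4G2. EIF3E, EIF3F, EIF4B, RACK1 and TPT1 are on the textbook TOP list. EEF2K and EIF4G2 differed in both measures, each time with the lower value after etoposide. The call for the mRNA difference of EIF4G2 ended in 2 of 15 alternatives. Only the mRNA differences of EEF2K and EIF3L and the footprint difference of EIF1B held in every alternative run for them.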

How the results depend on the processing

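Of 126 calls of single members, 48 held in every alternative run for them, which were 19 of 58 in mRNA, 24 of 57 in footprints and 5 of 11 in efficiency. EIF4B efficiency under thapsigargin reversed from -0.80 to 0.38 with unstranded counts (edgeR adjusted p = 0.485), and the cause was not tested. Counts of called members that moved by over 1.5 times were as follows. For mRNA of irradiated over etoposide-treated cells the count of 10 became 6 with RLE size factors and 5 with library totals. When only the groups compared were fitted, with fewer samples, mRNA counts became 1 in quiescence (from 2), 12 after irradiation (from 4) and 3 under thapsigargin (from 13). Footprint counts then became 1 in quiescence (from 3) and 9 between the senescent states (from 5). Efficiency counts became 2 after irradiation (from 0) and 5 under thapsigargin (from 11). DESeq2 gave 6 footprint calls in quiescence and 2 efficiency calls for the senescent mean. With no low-count filter 1 member was called in efficiency after etoposide. Without the thapsigargin libraries, a setting chosen after seeing the data, 5 members were called in footprints in quiescence. The causes were not tested.

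Leaving out 1 library at a time gave mRNA counts of 1 to 4 in quiescence, 4 to 4 after irradiation, 5 to 11 after etoposide, 4 to 12 under thapsigargin, 8 to 12 for the senescent mean and 2 to 6 between the senescent states. Footprint counts were 0 to 2, 7 to 10, 6 to 10, 14 to 21, 3 to 7 and 3 to 4 in the same order. Efficiency counts were 7 to 15 under thapsigargin and 0 to 0 elsewhere. The lowest counts came without RNA-seq cycling library 1 (etoposide 5, thapsigargin 4, efficiency 7) and etoposide library 2 (between the senescent states 2), and without Ribo-seq cycling library 1 (quiescence 0, irradiation 7), irradiated library 1 (senescent mean 3) and etoposide library 1 (etoposide 6).

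Libraries of 2 states share replicate numbers. Correlations of same-numbered libraries' deviations ran from -0.38 to 0.70 in RNA-seq and from -0.20 to 0.30 in Ribo-seq. Between RNA-seq and Ribo-seq libraries of 1 state they ran from -0.02 to 0.61, with 7 of 13 over 0.1, against 2 of 24 for differing numbers. The median of these correlations was 0.10, against -0.05 for differing numbers. Not every pair passed 0.1, so the numbers were not taken to pair the samples, and efficiency was fitted without that pairing. Whether same-numbered libraries came from the same culture was not tested. With the replicate block 11 members were called in mRNA and 21 in footprints under thapsigargin, 8 in efficiency, 9 in mRNA between the senescent states and 10 in footprints after irradiation, and the other 13 counts were equal. Of the 126 calls, 10 were lost.

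Without the low-count filter the median of all genes moved to 0.13 in mRNA after etoposide and to 0.11 for the senescent mean, beside member medians of -0.13 and -0.14. The footprint density of eIF3 subunits per coding length was not computed, as no coding lengths were used here. The 2 thapsigargin Ribo-seq libraries, at 1.94 and 2.04 M (M, 1e+06) counts, limit footprint and efficiency values of rarely counted members such as EIF2D, EIF4B and EEF1E1.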
